A study of Homo sapiens with 6 samples.

Results

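The genes described here encode chromatin modifiers and remodellers. They are the protein-coding genes of the count table whose symbols begin with KDM, KMT, SETD, ARID, SMARC, CHD, HDAC or KAT followed by a number or one of the letters A to E. This rule found 88 of 29122 genes, which carry 87 symbols because KDM4C is listed under 2 identifiers. They fall into histone methylation (17 KMT and SETD genes), demethylation (20 KDM), acetylation (7 KAT), deacetylation (11 HDAC) and remodelling (33 SMARC, ARID and CHD). The rule reads symbols and gene type, not measured values. Polyadenylated RNA was sequenced from A549, a human lung carcinoma epithelial line. In the 3 BCLAF1-depleted libraries, cells had been stably transduced with a lentivirus encoding a short hairpin RNA against BCLAF1, whose nuclear protein has been linked to mRNA splicing, transcription and the DNA damage response. In the 3 control libraries, the lentivirus encoded a hairpin against firefly luciferase, a gene that human cells lack. All 6 libraries therefore come from virus-transduced cells that carry a hairpin. Sample names write "si", whereas the treatment protocol describes hairpins. Neither the number of hairpins nor any cloning of the cells is given in the sources used here. Nothing in the labels says that replicates came from separate cultures, so p-values cover only library-to-library spread, which may be purely technical.

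Histone methyltransferases add methyl groups to lysines, and demethylases of the LSD and Jumonji families take them off. Acetyltransferases add acetyl groups that loosen chromatin and mark active genes, and deacetylases, mostly as subunits of corepressor complexes, remove them. Remodellers use ATP to slide or evict nucleosomes. SWI/SNF complexes, built around either SMARCA4 or SMARCA2, open enhancers and promoters, and their subunit genes are among the chromatin genes most often mutated in lung carcinoma. A549 itself is known to carry an inactivating mutation of SMARCA4 and to lack its protein; only RNA was measured here. Not every symbol in the set names a chromatin enzyme: SETD3 is known as a methyltransferase of actin, and the ARID3, ARID4 and ARID5 genes encode DNA-binding proteins or corepressor subunits.

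The depletion was seen in every library. BCLAF1 had 39.0, 35.7 and 53.1 CPM (counts scaled to a common library size) in BCLAF1-depleted replicates 1 to 3, against 211, 199 and 203 CPM in control replicates 1 to 3. Its log2 fold change, BCLAF1-depleted over control, was -2.26 ± 0.16 (SE; adjusted p = 2.31e-05). Library totals ranged from 33409158 to 43928927 counts, so that 3 counts, the floor for counting error only, correspond to 0.0683 to 0.0898 CPM. BCLAF1-depleted libraries differed more from each other than control libraries did: the chi-square per degree of freedom between pairs of replicates was 79.9 to 188 and 3.66 to 12.1. Genes on the mitochondrial chromosome took 11.4, 10.5 and 19.3% of counts in BCLAF1-depleted replicates 1 to 3 and 10.7 to 11.1% in controls. The summed level of 6 epithelial markers was 34512 to 41993 CPM in BCLAF1-depleted and 32614 to 34244 CPM in control libraries, mostly from KRT8 and KRT18. The adhesion genes CDH1 (79.1 and 74.7 CPM on average) and EPCAM (36.5 and 42.5 CPM) added little to it. Among the 6 markers KRT19 was close to absent, at 0.616 ± 0.232 and 0.280 ± 0.0663 CPM (SD, n = 3 each). At that low level it was called higher by edgeR (1.13, adjusted p = 0.0495), but not with the length and GC trend removed (0.103). Summed markers stayed low for leukocytes (0.770 to 1.76 CPM in BCLAF1-depleted and 0.406 to 1.62 CPM in control libraries), endothelium (2.03 to 2.68 and 1.60 to 2.22 CPM) and fibroblasts (12.6 to 14.7 and 20.6 to 22.2 CPM). Of these low markers COL1A1 (-0.84, adjusted p = 0.00136 by edgeR) and PECAM1 (-0.89, 0.0359) fell, and CDH5 rose (1.20, 0.00822). The call of PECAM1 was lost with the length and GC trend removed (adjusted p = 0.0766 by edgeR). In bulk RNA, fewer cells expressing a gene and less RNA per cell cannot be told apart.

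Of the 87 members that passed the filter on low counts, 8 rose and 23 fell after BCLAF1 depletion (adjusted p under 0.05). That is 35.6% of the members, close to the 35.8% called among all 15907 tested genes. The split differed from the background, with 9.20% of members higher against 17.8% of all genes and 26.4% lower against 18.0%. The median log2 fold change was -0.11 for the members and 0.02 for all genes. KDM4E, the member below the filter, had counts of 0, 1 and 0 in BCLAF1-depleted and 0, 0 and 3 in control libraries. The CPM of the 2 groups did not overlap for 10 members on the higher side and 33 on the lower, of 87. Among all tested genes 51.9% showed no overlap, 25.3% higher and 26.6% lower. With the trends of each library with exon length and with GC content removed together, 16 members were higher (18.4% against 17.8% of all genes) and 14 lower (16.1% against 16.0%), with a median of 0.01. In that fit 33.8% of all genes were called.

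**Figure D1:**
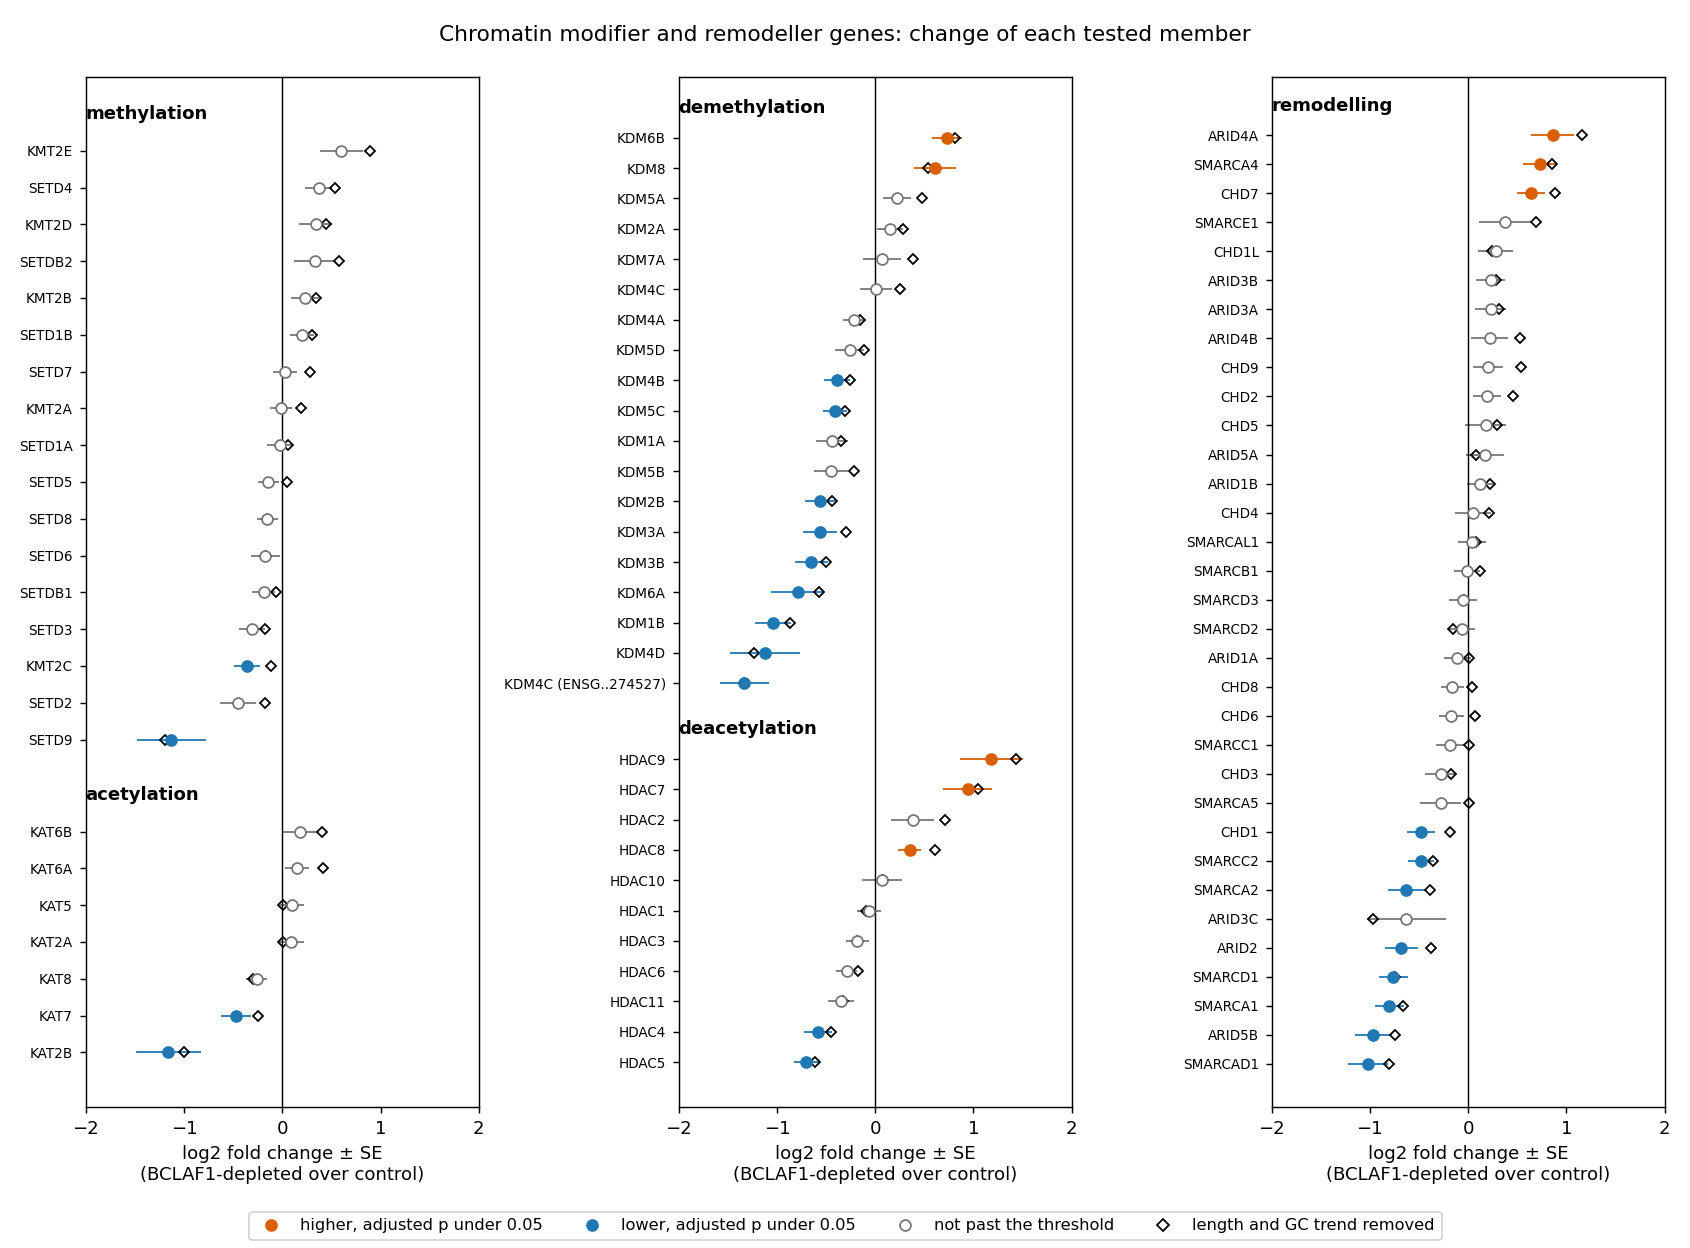
Log2 fold change of each of the 87 tested members (horizontal axis, BCLAF1-depleted over control, ± SE, n = 3 each), by functional group. Filled circles passed an adjusted p under 0.05 (8 higher, 23 lower), open circles did not, and diamonds give the value with the length and GC trend removed; demethylases lie mostly on the lower side, and deacetylases on both.

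Among the 12 SWI/SNF genes, 1 rose, 4 fell and 7 did not pass the test (41.7% called, against 35.8% of all genes). With the length and GC trend removed 1 was higher and 2 lower (25.0% against 33.8%). The gene that rose was SMARCA4 (ENSG00000127616.16; chromosome 19, 10960825 to 11079426, plus strand, in GRCh38 as annotated by GENCODE release 29), one of the 2 alternative ATPases. It had 39.8, 62.4 and 65.1 CPM in BCLAF1-depleted replicates and 34.2, 34.0 and 32.4 CPM in controls. All 3 BCLAF1-depleted values lay above the controls, with replicate 1 nearest to them, and the log2 fold change was 0.73 ± 0.17 (adjusted p = 0.0105). SMARCA2 (ENSG00000080503.18; chromosome 9, 1980290 to 2193624, plus strand), the other ATPase, had 45.8, 37.5 and 66.0 CPM in BCLAF1-depleted replicates and 84.3, 73.6 and 73.6 CPM in controls. Its groups did not overlap, and it fell by 0.63 ± 0.19 on the log2 scale (adjusted p = 0.0261). The fall did not pass once the length and GC trend was removed (-0.39, adjusted p = 0.113), nor without BCLAF1-depleted replicate 2 or any 1 of the controls (adjusted p 0.0610 to 0.0930). SMARCA4 was at 0.85 with the trend removed (adjusted p = 0.00355). Its adjusted p was only just under 0.05 without control replicate 3, and on FPKM values it was at 0.34 to 0.40 and was not called (adjusted p 0.0781 to 0.117).

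The stretches before a RefSeq start of these 2 ATPase genes are shown because their transcripts moved in opposite directions. Each is the 250 bases before the most upstream start that RefSeq lists on GRCh38.p14, 5′ to 3′ on the coding strand, and capitals mark the letters of 4 motifs searched on both strands: the GC box GGGCGG, the ETS motif CCGGAAG, the NF-Y motif CCAAT and the NRF1 motif TGCGCATG.
SMARCA4, chr19:10960780-10961029, plus strand: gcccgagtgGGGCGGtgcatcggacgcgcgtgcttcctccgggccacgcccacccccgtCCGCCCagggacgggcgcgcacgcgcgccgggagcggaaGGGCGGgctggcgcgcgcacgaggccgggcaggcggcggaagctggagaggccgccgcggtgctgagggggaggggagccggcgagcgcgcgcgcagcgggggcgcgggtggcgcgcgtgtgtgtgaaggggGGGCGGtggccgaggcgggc
SMARCA2, chr9:2015097-2015346, plus strand: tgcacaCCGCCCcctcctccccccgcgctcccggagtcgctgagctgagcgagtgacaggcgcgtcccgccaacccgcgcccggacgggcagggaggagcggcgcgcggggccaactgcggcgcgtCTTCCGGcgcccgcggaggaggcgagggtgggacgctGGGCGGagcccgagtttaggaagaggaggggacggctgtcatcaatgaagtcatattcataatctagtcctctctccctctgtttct
The SMARCA4 window is 82.4% G and C and holds 4 GC boxes; the SMARCA2 window is 68.8% G and C and holds 2 GC boxes and 1 ETS motif. RefSeq lists 2 starts for SMARCA4 and 4 for SMARCA2. GC boxes occur in 42.6% of all 35116 RefSeq windows of this length and in 67 of the 117 windows (57.3%) of the 74 member symbols that matched. The ETS motif is in 8.52% of all windows and 15 member windows (12.8%), NF-Y in 32% and 34 (29.1%), and NRF1 in 1.81% and 1 (0.855%). Motifs of different kinds did not overlap in the windows printed. The starts that RefSeq gives differ from the GENCODE gene starts above: by the GENCODE coordinates the SMARCA2 window and most of the SMARCA4 window lie inside the gene, so neither shows the sequence before the GENCODE start. A match describes letters, not a bound site.

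The other SWI/SNF genes that fell encode core or targeting subunits. SMARCD1 had 28.6, 19.9 and 27.4 CPM in BCLAF1-depleted replicates and 43.9, 44.6 and 39.9 CPM in controls, with no overlap (-0.76 ± 0.15, adjusted p = 0.00474). ARID2, the defining subunit of the PBAF form, had 18.2, 11.5 and 12.5 CPM against 23.1, 21.8 and 22.7 CPM in controls (-0.68 ± 0.17, adjusted p = 0.0125; -0.38 with the trend removed, adjusted p = 0.0456). SMARCC2, a scaffold subunit, had 95.9, 86.5 and 112 CPM against 144, 139 and 127 CPM in controls (-0.48 ± 0.13, adjusted p = 0.0206; 0.0515 with the trend removed). SMARCC2 also lost its call without BCLAF1-depleted replicate 2 or any 1 of the controls, and it shares 514 exon bases with MYL6 on the opposite strand. The 7 subunit genes not past the threshold ranged from -0.18 for SMARCC1 to 0.38 for SMARCE1. SMARCE1 had the highest CPM of all members, 407, 487 and 925 CPM in BCLAF1-depleted replicates and 476, 491 and 427 CPM in controls. Its BCLAF1-depleted values straddled the controls, with replicate 3 far above the rest (0.38 ± 0.27, adjusted p = 0.278), and it shares 3697 exon bases with KRT222 on the same strand. SMARCB1, the tumour suppressor subunit, was at -0.01 ± 0.13 and ARID1A at -0.11 ± 0.14.

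Outside SWI/SNF, 2 of 4 SMARC genes fell and 0 rose, where 18.0% of all genes fell and 17.8% rose. SMARCA1, an ISWI-family ATPase that spaces nucleosomes, had 104, 75.5 and 106 CPM in BCLAF1-depleted replicates and 170.0, 169.5 and 157 CPM in controls, a wide gap between the groups (-0.80 ± 0.15, adjusted p = 0.00389). Its paralogue SMARCA5 was at -0.28 ± 0.21 (adjusted p = 0.304). SMARCAD1, a remodeller with roles in heterochromatin upkeep and DNA end resection, had 12.5, 6.80 and 10.1 CPM against 18.8, 19.7 and 21.3 CPM in controls (-1.02 ± 0.20, adjusted p = 0.00412). SMARCAL1, which anneals single DNA strands at stalled forks, was at 0.04 ± 0.14. SMARCD1, SMARCA1 and SMARCAD1 stayed past the threshold in every setting tried, as did ARID5B, HDAC5, KDM1B and the second KDM4C identifier.

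Of the 7 other ARID genes, 1 rose and 1 fell (28.6% called, against 35.8% of all genes). ARID4A, a retinoblastoma-binding protein of the SIN3 corepressor, had 32.5, 52.3 and 69.2 CPM in BCLAF1-depleted replicates and 27.6, 27.7 and 29.7 CPM in controls (0.86 ± 0.22, adjusted p = 0.0154). No BCLAF1-depleted value overlapped the controls, but the call was lost without BCLAF1-depleted replicate 2 or any 1 of the controls (adjusted p 0.0515 to 0.0558). ARID5B, a partner of the demethylase PHF2, had 2.77, 2.84 and 2.06 CPM against 5.25, 5.10 and 4.74 CPM in controls (-0.97 ± 0.18, adjusted p = 0.00340). The other 5 ranged from -0.63 for ARID3C, whose mean was 0.546 CPM in BCLAF1-depleted and 0.839 CPM in control cells, to 0.23.

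Of the 10 CHD genes, 1 rose and 1 fell, a smaller share than the 35.8% of all genes called. With the length and GC trend removed 3 were higher and 0 lower (30.0% called, against 33.8% of all genes, 17.8% higher and 16.0% lower). CHD7, the gene of CHARGE syndrome and a binder of enhancers, had 75.8, 106 and 104 CPM in BCLAF1-depleted replicates and 61.6, 59.3 and 62.1 CPM in controls (0.64 ± 0.14, adjusted p = 0.00844). Its call was lost when libraries were scaled by their totals alone (adjusted p = 0.0587). CHD1, which binds the methyl mark of active promoters, had 69.6, 51.7 and 66.8 CPM against 90.7, 84.6 and 86.8 CPM in controls (-0.48 ± 0.14, adjusted p = 0.0219). With the trend removed CHD1 was at -0.18 (adjusted p = 0.210), and its call was also lost without any 1 of the controls. The NuRD ATPases were abundant and did not pass: CHD3 had 272, 307 and 393 CPM in BCLAF1-depleted replicates and 407, 380.3 and 394 CPM in controls (-0.28 ± 0.16, adjusted p = 0.188), and CHD4 was at 0.05 ± 0.18.

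Of the 19 tested demethylase entries, 9 fell and 2 rose (57.9%, against 35.8% of all genes), with a median log2 fold change of -0.41. On the lower side 12 of the 19 had no overlap between the groups, as did 26.6% of all genes. With the length and GC trend removed 5 fell and 2 rose (36.8% against 33.8% of all genes), and the median was -0.26. The median was also below 0 with library totals as the only scaling (-0.63, where all genes had -0.21) and without BCLAF1-depleted replicate 1 (-0.49).

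The 2 demethylases that act on the Polycomb methyl mark moved in opposite directions. KDM6B (ENSG00000132510.9; chromosome 17, 7839904 to 7854796, plus strand), an inducible enzyme also called JMJD3, had 24.0, 32.9 and 35.8 CPM in BCLAF1-depleted replicates and 19.1, 19.1 and 17.7 CPM in controls. All 3 BCLAF1-depleted values lay above the controls (0.73 ± 0.15, adjusted p = 0.00635; 0.81 with the trend removed). KDM6A (ENSG00000147050.13; chromosome X, 44873177 to 45112602, plus strand), also called UTX, had 6.64, 2.79 and 3.45 CPM against 7.31, 7.71 and 7.34 CPM in controls. Replicate 1 lay just below the controls and the other two far below (-0.79 ± 0.27, adjusted p = 0.0436). KDM6A lost its call with the trend removed (-0.57, adjusted p = 0.0766) and without any 1 library other than BCLAF1-depleted replicate 1. The windows before the most upstream RefSeq start of both genes, taken and marked as for the SWI/SNF ATPases, are shown for this contrast.
KDM6B, chr17:7833967-7834216, plus strand: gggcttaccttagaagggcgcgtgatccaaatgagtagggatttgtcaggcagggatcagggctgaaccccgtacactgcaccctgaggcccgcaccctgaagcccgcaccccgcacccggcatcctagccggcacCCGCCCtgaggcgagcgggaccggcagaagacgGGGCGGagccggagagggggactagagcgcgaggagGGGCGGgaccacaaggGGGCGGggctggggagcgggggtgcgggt
KDM6A, chrX:44872938-44873187, plus strand: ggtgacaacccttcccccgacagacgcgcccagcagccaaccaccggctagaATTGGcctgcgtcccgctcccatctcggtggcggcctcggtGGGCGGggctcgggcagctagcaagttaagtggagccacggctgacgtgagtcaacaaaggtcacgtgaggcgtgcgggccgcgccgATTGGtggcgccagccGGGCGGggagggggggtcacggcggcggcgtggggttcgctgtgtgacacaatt
The KDM6B window holds 4 GC boxes (70.4% G and C, 2 listed starts), and the KDM6A window holds 2 GC boxes and 2 NF-Y motifs (69.2% G and C, 1 listed start). By the GENCODE coordinates the KDM6B window lies before the gene start without adjoining it, ending at 7834216 where the gene starts at 7839904. The KDM6A window ends just past the start of its gene, so the 2 windows are not placed alike.

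The 2 LSD demethylases use flavin rather than iron. KDM1B had 6.90, 4.16 and 6.01 CPM in BCLAF1-depleted replicates and 11.5, 11.7 and 12.0 CPM in controls, with controls tightly grouped (-1.04 ± 0.18, adjusted p = 0.00270). KDM1A, a subunit of the CoREST corepressor and the most abundant demethylase transcript per length (26.6 FPKM in BCLAF1-depleted and 43.1 FPKM in control libraries on average), had 126, 95.7 and 85.5 CPM against 139, 149 and 129 CPM in controls. Its groups did not overlap, but the difference missed the threshold (-0.44 ± 0.16, adjusted p = 0.0519).

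Among the Jumonji enzymes that act on heterochromatin and transcription-linked marks, the KDM3 pair and part of the KDM4 family fell. KDM3B had 50.6, 31.6 and 38.0 CPM in BCLAF1-depleted replicates and 66.4, 65.6 and 57.3 CPM in controls (-0.65 ± 0.17, adjusted p = 0.0144). KDM3A, which is induced by hypoxia, had 25.7, 16.0 and 17.6 CPM against 31.3, 29.0 and 27.2 CPM in controls (-0.56 ± 0.17, adjusted p = 0.0311), and was at -0.30 with the trend removed (adjusted p = 0.126). KDM4B fell by 0.39 ± 0.13 on the log2 scale (adjusted p = 0.0425), a call lost with the trend removed (0.139), while KDM4A was at -0.22 ± 0.11 (adjusted p = 0.136). KDM4D, at under 1 CPM in every library, had 0.428, 0.381 and 0.277 CPM against 0.928, 0.947 and 0.520 CPM in controls (-1.12 ± 0.36, adjusted p = 0.0345). KDM4C was counted under 2 identifiers that did not move alike. ENSG00000274527.3 had 4.33, 1.85 and 2.93 CPM in BCLAF1-depleted replicates and 8.24, 7.60 and 7.11 CPM in controls (-1.33 ± 0.25, adjusted p = 0.00420). ENSG00000107077.16 had 14.4, 15.5 and 21.5 CPM against 16.6, 17.4 and 17.0 CPM in controls (0.01 ± 0.16, adjusted p = 0.963). The first of these identifiers has no match in GENCODE release 29, so it received no length correction, and reads of the gene could have been split between the entries; the direction for KDM4C as a whole is uncertain.

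KDM2B, which brings variant Polycomb complexes to CpG islands, had 24.9, 16.9 and 21.9 CPM in BCLAF1-depleted replicates and 30.1, 34.4 and 29.4 CPM in controls (-0.56 ± 0.15, adjusted p = 0.0184). KDM5C, which acts on the methyl mark of active promoters, had 81.0, 69.2 and 74.9 CPM against 101, 97.2 and 102 CPM in controls (-0.41 ± 0.12, adjusted p = 0.0204), and just missed the threshold with the trend removed (-0.31, adjusted p = 0.0519). KDM8, a Jumonji protein also known as a hydroxylase, rose at a low level, with 2.11, 1.73 and 1.79 CPM against 1.13, 1.40 and 1.16 CPM in controls (0.61 ± 0.21, adjusted p = 0.0491). That call was lost without any 1 library and with the trend removed (adjusted p = 0.0763). Calls of KDM2B, KDM3B and KDM4D also ended without control replicate 1 or without control replicate 2, and those of KDM3A, KDM4B and KDM5C without any 1 of the controls. Leaving out BCLAF1-depleted replicate 2 ended those of KDM3A and KDM4D, and leaving out replicate 3 those of KDM3A, KDM4B and KDM4D. Of the KDM entries not named so far, KDM5B was at -0.45 ± 0.17 (adjusted p = 0.0572), KDM5A at 0.22, KDM2A at 0.15, KDM7A at 0.07 and KDM5D at -0.26.

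Of the 17 methyltransferase genes, 2 fell and 0 rose at the edgeR threshold (11.8%, against 35.8% of all genes), with a median of -0.02. At an unadjusted p under 0.05, 2 were higher and 4 lower, with no share of all genes computed. The DESeq2 Wald test called 1 higher (19.3% of all genes) and limma-voom 0 (17.0% of all genes). SETD9, a gene with no well-established substrate, had 0.542, 0.850 and 0.277 CPM in BCLAF1-depleted replicates and 1.20, 1.29 and 1.18 CPM in controls (-1.13 ± 0.35, adjusted p = 0.0318). Its call was lost without BCLAF1-depleted replicate 3 or any 1 of the controls, and it shares 219 exon bases with AC008937.3 on the opposite strand. KMT2C, which with KMT2D primes enhancers, had 46.2, 36.4 and 38.6 CPM against 51.3, 54.5 and 49.6 CPM in controls (-0.36 ± 0.13, adjusted p = 0.0472). KMT2C was at -0.11 with the trend removed (adjusted p = 0.435) and lost its call without any 1 library other than BCLAF1-depleted replicate 1. KMT2D had 123, 152 and 201 CPM against 131, 127 and 119 CPM in controls, with BCLAF1-depleted replicate 1 inside the control range (0.34 ± 0.17, adjusted p = 0.145). SETD5 was at -0.14 ± 0.11 and SETD2, the enzyme for the methyl mark of transcribed gene bodies, at -0.45 ± 0.18 (adjusted p = 0.0798). With the trend removed 4 genes were higher, KMT2E (0.89, adjusted p = 0.0162), SETD4 (0.54, 0.0157), SETDB2 (0.58, 0.0399) and KMT2D (0.45, 0.0482), and SETD9 was lower. In that fit 29.4% of the group was called, against 33.8% of all genes (23.5% higher against 17.8%, and 5.88% lower against 16.0%). KMT2E had 52.3, 73.3 and 104 CPM in BCLAF1-depleted replicates and 44.3, 52.6 and 54.9 CPM in controls, and missed the threshold before the correction (0.60 ± 0.22, adjusted p = 0.0532). Per length, SETD8, the enzyme that monomethylates histone H4 and is now named KMT5A, was the most abundant of the group, at 14.8 FPKM in BCLAF1-depleted and 19.9 FPKM in control libraries on average (log2 fold change of CPM -0.15 ± 0.11).

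Acetyltransferase genes were called in 2 of 7 cases, both lower (28.6%, against 35.8% of all genes). At an unadjusted p under 0.05 edgeR put 0 higher and 3 lower, with no share of all genes computed. Neither DESeq2 nor limma-voom called one higher, against 19.3 and 17.0% of all genes. KAT2B, also called PCAF, had 6.98, 2.11 and 3.42 CPM in BCLAF1-depleted replicates and 10.2, 8.48 and 9.31 CPM in controls; replicate 2 was lowest and no value overlapped the controls (-1.16 ± 0.33, adjusted p = 0.0230). KAT7, the MYST enzyme also called HBO1, had 27.2, 17.8 and 23.1 CPM against 31.7, 30.7 and 32.0 CPM in controls (-0.47 ± 0.15, adjusted p = 0.0360), and was at -0.25 with the trend removed (adjusted p = 0.155). The call of KAT2B was lost without BCLAF1-depleted replicate 2 or 3 or control replicate 1 or 3, and that of KAT7 without any 1 library other than BCLAF1-depleted replicate 1. KAT2A, the paralogue of KAT2B in the SAGA complex, had 58.8, 52.1 and 45.5 CPM against 53.7, 49.2 and 44.0 CPM in controls, overlapping ranges (0.09 ± 0.13, adjusted p = 0.629). KAT6A had 65.9, 77.1 and 75.2 CPM against 67.1, 67.3 and 62.6 CPM in controls (0.15 ± 0.12, adjusted p = 0.343; 0.41 with the trend removed, adjusted p = 0.0289). KAT8 was at -0.26 ± 0.11 (adjusted p = 0.0892), KAT6B at 0.18 and KAT5 at 0.10.

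Deacetylase genes moved both ways: 3 of 11 rose and 2 fell. That is 27.3% higher and 18.2% lower, against 17.8 and 18.0% of all genes. Of the class IIa enzymes, which shuttle between nucleus and cytoplasm and bind MEF2 factors, 2 rose and 2 fell. HDAC7 had 41.9, 69.8 and 99.5 CPM in BCLAF1-depleted replicates and 36.0, 35.7 and 38.1 CPM in controls, with replicate 1 close to the controls (0.94 ± 0.25, adjusted p = 0.0159). Its highest value came from the library with 19.3% of counts on the mitochondrial chromosome, and the part of that share in the result was not tested. HDAC7 also shares 963 exon bases with the opposite-strand gene RP5-1057I20.4, and no source used here gives the strand setting of the counting. HDAC9 had 8.32, 4.96 and 12.8 CPM against 3.15, 3.22 and 5.13 CPM in controls; control replicate 3 lay above BCLAF1-depleted replicate 2 (1.18 ± 0.32, adjusted p = 0.0179). The call of HDAC7 was lost without BCLAF1-depleted replicate 2 or any 1 of the controls, and that of HDAC9 without BCLAF1-depleted replicate 3 or control replicate 1 or 2. HDAC5 had 7.67, 8.92 and 9.34 CPM in BCLAF1-depleted replicates and 14.7, 13.3 and 14.2 CPM in controls, 2 tight and separate groups (-0.70 ± 0.13, adjusted p = 0.00391). HDAC4 had 11.3, 12.0 and 9.15 CPM against 17.1, 15.5 and 16.0 CPM in controls (-0.58 ± 0.14, adjusted p = 0.0107; 0.0575 without control replicate 1).

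Of the class I deacetylases, HDAC1 and HDAC2 form the core of the NuRD, SIN3 and CoREST complexes. HDAC1 had 75.9, 78.7 and 87.4 CPM in BCLAF1-depleted replicates and 87.4, 85.8 and 79.6 CPM in controls (-0.06 ± 0.12, adjusted p = 0.701). HDAC2 had 156, 182 and 300.1 CPM against 168, 169.6 and 151 CPM in controls, with replicate 3 well above the others (0.38 ± 0.22, adjusted p = 0.187; 0.71 with the trend removed, adjusted p = 0.0325). HDAC8, which deacetylates cohesin, had 32.0, 36.7 and 40.6 CPM against 27.8, 30.0 and 28.0 CPM in controls (0.35 ± 0.12, adjusted p = 0.0490). HDAC8 lost its call with library totals alone (adjusted p = 0.608) and without any 1 library other than BCLAF1-depleted replicate 1, whereas it was at 0.61 with the trend removed (adjusted p = 0.00647). HDAC3 was at -0.18 ± 0.12, the tubulin deacetylase HDAC6 at -0.29 ± 0.11 (adjusted p = 0.0698), HDAC11 at -0.35 ± 0.13 (adjusted p = 0.0621) and HDAC10 at 0.07 ± 0.20.

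**Figure D2:**
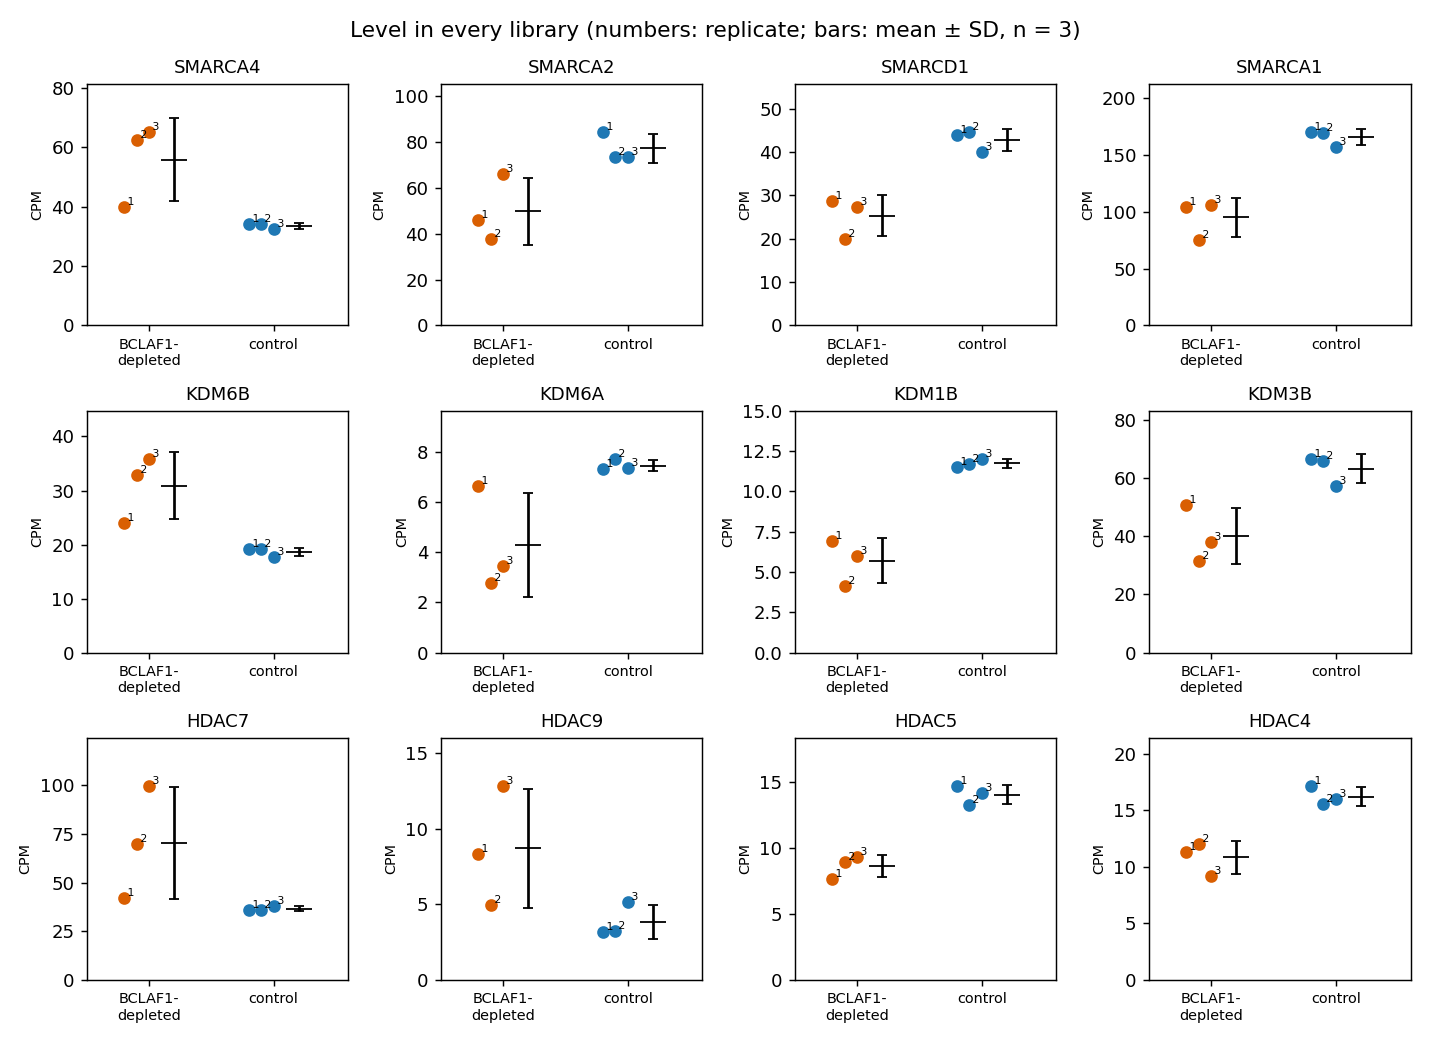
CPM (vertical axes, from 0) of 12 members in each BCLAF1-depleted (left) and control (right) library, with replicate numbers and the mean ± SD (n = 3). Controls cluster tightly, and BCLAF1-depleted replicate 1 is often nearest to them, as for SMARCA4 (39.8 CPM), KDM6A (6.64 CPM) and HDAC7 (41.9 CPM); HDAC9 is the plotted gene whose groups overlap.

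Because many members come as paralogue pairs with related roles, the ratio of the 2 FPKM values was taken within each library. Such a ratio does not depend on how libraries are scaled. The 24 pairs and the order within each were chosen with the fold changes known, so the ratios are a description with no test. In 18 pairs the BCLAF1-depleted and control ratios did not overlap, and in 13 of these the ratio differed at least 1.5-fold. Shares over other gene pairs were not computed, so neither count has a background. The 51.9% without overlap among all tested genes is for CPM of single genes, not for ratios. SMARCA4 over SMARCA2 was 0.886, 1.69 and 1.00 in BCLAF1-depleted replicates, against 0.413, 0.471 and 0.449 in controls, 2.58-fold higher. SMARCA4 transcripts were thus near or above parity with those of SMARCA2 per length in BCLAF1-depleted libraries, and below 0.5 of their level in each control. KDM6B over KDM6A was 3.20, 10.4 and 9.20 in BCLAF1-depleted replicates, against 2.30, 2.18 and 2.13 in controls (3.05-fold). HDAC7 over HDAC5 was 6.57, 9.45 and 12.8 against 2.94, 3.25 and 3.22 in controls (2.95-fold). HDAC9 over HDAC4 was 0.509, 0.288 and 0.971 against 0.126, 0.145 and 0.220 in controls (3.29-fold), and KAT2A over KAT2B was 13.1, 38.4 and 20.6 against 8.23, 9.01 and 7.36 in controls (2.67-fold). In these pairs replicate 1 or 2 came nearest to the controls. Pairs that kept overlapping ratios were KAT6A with KAT6B, KDM3A with KDM3B, KDM4A with KDM4B, KMT2A with KMT2B, SETD1A with SETD1B and CHD9 with CHD8. HDAC1 over HDAC2 was 2.33, 2.07 and 1.39 in BCLAF1-depleted replicates, against 2.49, 2.42 and 2.51 in controls, and ARID1A over ARID1B was 2.40, 2.36 and 2.50 against 2.86, 2.84 and 2.86 in controls.

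**Figure D3:**
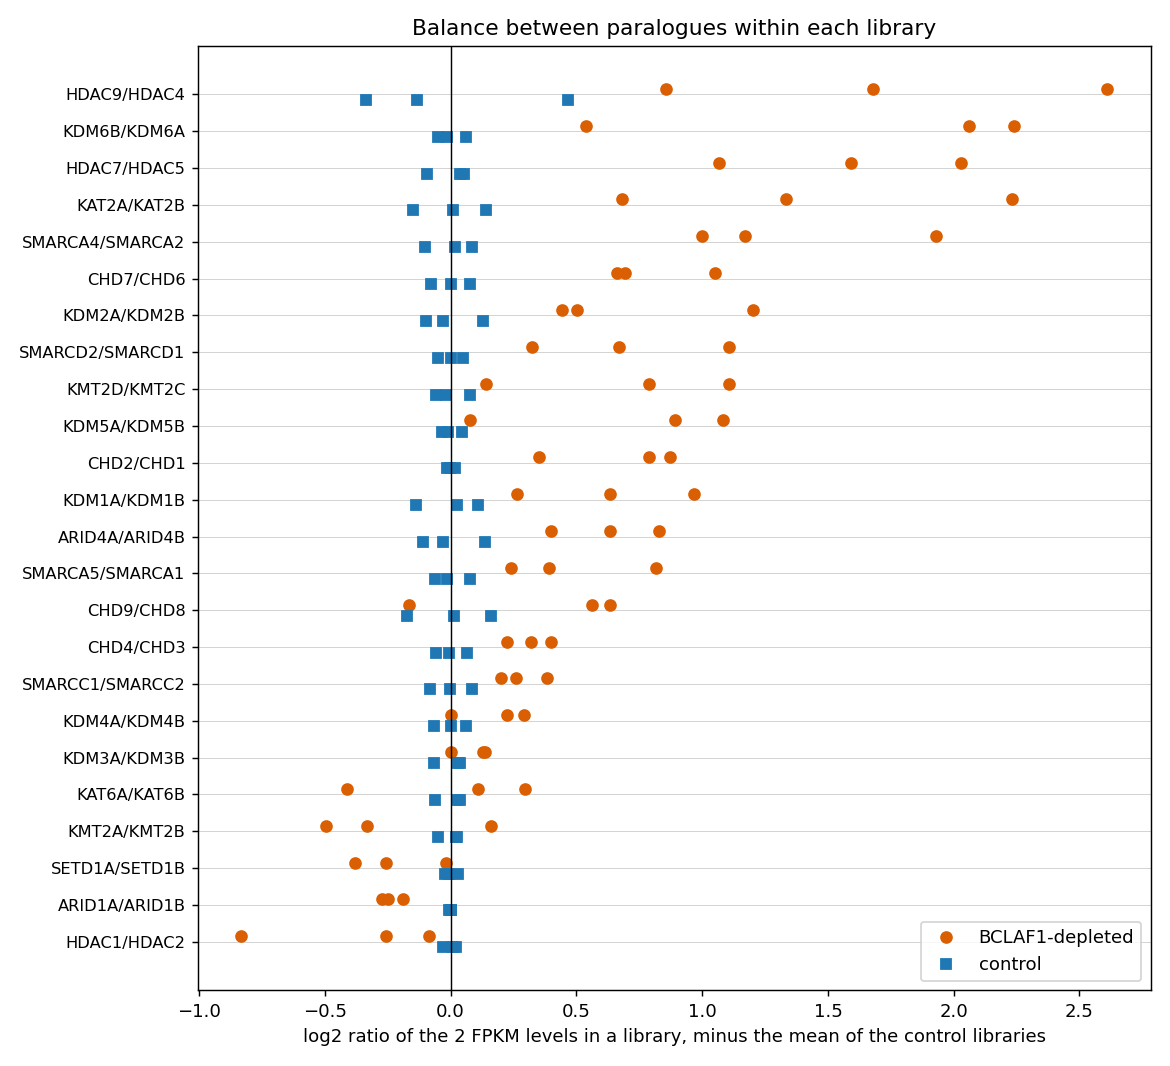
Log2 ratio of the 2 FPKM levels of each paralogue pair in each library, minus the mean log2 ratio of the control libraries (horizontal axis), for BCLAF1-depleted (circles) and control (squares) libraries. Control ratios stay near 0, and BCLAF1-depleted ratios lie apart from them in 18 of 24 pairs. The share over other gene pairs was not computed.

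Members are long genes, with a median exon length of 9187 bases against 4525 for all tested genes, and 49 of the 86 with a length fall in the longest of 5 equal bins of tested genes (7814 to 205012 bases). In that bin all genes had a median log2 fold change of -0.19, with 10.3% higher and 30.1% lower, whereas the shortest bin had 0.35. The 49 long members had a median of -0.01, with 5 higher and 13 lower. In the bins of 3745 to 5415 and 5416 to 7812 bases, 15 members each, the member medians were -0.17 and -0.18 against -0.03 and -0.12 for all genes. Removing the trend kept 7 of the 8 higher calls and 14 of the 23 lower ones. The higher call lost was KDM8, and the lower ones were CHD1, KAT7, KDM3A, KDM4B, KDM5C, KDM6A, KMT2C, SMARCA2 and SMARCC2. It added 9 higher calls, CHD2, CHD9, HDAC2, KAT6A, KDM5A, KMT2D, KMT2E, SETD4 and SETDB2, and no lower one. Shares of calls kept, lost and added among all genes, or among genes of like length, were not computed. Length and GC content were removed together, and the part of either in the single results was not tested.

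**Figure D4:**
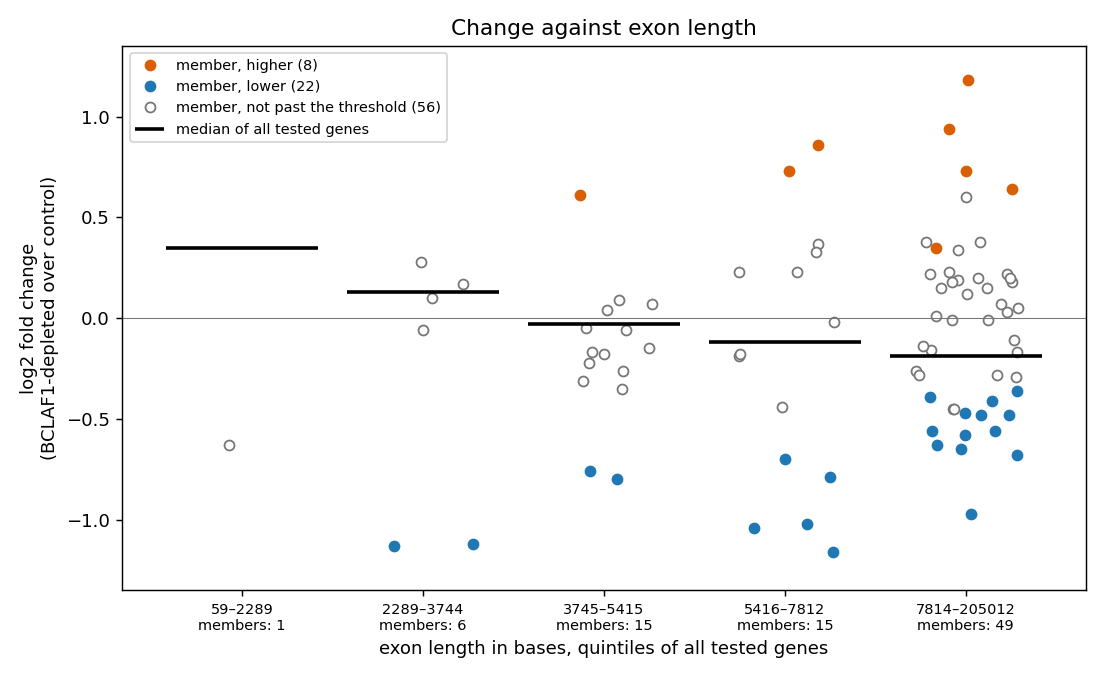
Log2 fold change (vertical axis, BCLAF1-depleted over control) of the 86 members with an exon length, placed in 5 bins of exon length with equal numbers of tested genes (horizontal axis, in bases); black lines are the medians of all tested genes. The medians step down from 0.35 in the shortest bin to -0.19 in the longest, where 49 members lie; the lower KDM4C identifier has no length and is not drawn.

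The 3 BCLAF1-depleted libraries did not contribute alike. Replicate 1 lay closest to the control mean for 21 of the 31 called members, while replicate 2 lay farthest for 18 and replicate 3 for 11. The same count over all called genes was not taken. Over all tested members the median log2 difference from the control mean was -0.15, -0.13 and -0.04 in replicates 1 to 3. Over all tested genes it was 0.01, 0.00 and -0.01. Without replicate 1, 15 members were higher and 32 lower (54.0%, against 48.8% of all genes, 23.0% higher and 25.8% lower), and demethylases then had 2 higher and 13 lower of 19. On the deposited FPKM values tested with limma-trend, 0 members were higher in any of 3 settings, so all 8 higher calls, SMARCA4, KDM6B and CHD7 included, were made on counts only. For log2(FPKM + 1), log2(FPKM + 0.1) and log2(FPKM + 1) with no filter on low values, 5.72, 5.63 and 1.98% of all genes were higher and 22.5, 21.6 and 7.12% lower (28.3, 27.3 and 9.11% in either direction), and the median of all genes was -0.13, -0.24 and -0.01. At an unadjusted p under 0.05, 5 members were higher in each of these settings, with no share of all genes computed at that threshold. With library totals as the only scaling, which moved the median of all genes to -0.21, 5 members were higher (8.07% of all genes) and 32 lower (23.0%; 31.1% in either direction).

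Genes of the same complexes that carry other symbols were counted from lists, beside the background of 17.8% higher and 18.0% lower among all genes. DESeq2 called 19.3% of all genes higher and 18.7% lower, and limma-voom 17.0 and 19.0%. Shares of all genes at an unadjusted p under 0.05 were not computed. Of 15 other SWI/SNF subunit genes tested, 3 rose and 0 fell by edgeR (4 and 1 at an unadjusted p under 0.05, 4 and 0 by DESeq2, 3 and 0 by limma-voom). On FPKM values tested with limma-trend, 0 rose and 3 fell for log2(FPKM + 1) and for log2(FPKM + 0.1). Of all genes 5.72 and 5.63% were higher there and 22.5 and 21.6% lower. At an unadjusted p under 0.05, 1 rose and 6 fell in each. With no filter on low values 0 rose and 0 fell (1 and 4 at an unadjusted p under 0.05). BRD9, of the non-canonical complex, had 119 ± 39.1 CPM in BCLAF1-depleted and 65.4 ± 0.906 CPM in control cells (0.86 ± 0.21, adjusted p = 0.0121), BCL7C was at 0.55 and BICRA at 0.45. Of 26 genes of the ISWI, INO80, SRCAP and ATRX complexes, 2 rose and 3 fell. BAZ1A, a partner of the ISWI ATPase SMARCA5, had 244 ± 109 CPM in BCLAF1-depleted and 106 ± 3.62 CPM in control cells (1.21 ± 0.27, adjusted p = 0.00796). INO80B rose by 0.85 and CHRAC1 fell by 0.53 on the log2 scale; INO80B was at 0.49 with the trend removed (adjusted p = 0.0221). Of 33 Polycomb genes, 2 rose, with YAF2 at 0.79, and 9 fell, among them RNF2 (-0.64), the E3 ligase for the histone H2A mark, and its cofactor RYBP (-0.63). Of 15 COMPASS entries, 1 rose and 3 fell, namely the core subunits ASH2L (-0.66) and RBBP5 (-0.61) and the adaptor PAXIP1 (-0.55).

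Of 21 other methyltransferase genes tested, 0 rose and 7 fell by edgeR, also at an unadjusted p under 0.05, by DESeq2 and by limma-voom. Of all genes edgeR called 17.8% higher and 18.0% lower, DESeq2 19.3 and 18.7%, and limma-voom 17.0 and 19.0%. The unadjusted counts have no such share. MECOM, a zinc-finger transcriptional regulator, had 1.85 ± 0.380 CPM in BCLAF1-depleted and 8.26 ± 0.420 CPM in control cells (-2.16 ± 0.18, adjusted p = 5.17e-05), NSD2 was at -0.67 and ASH1L at -0.57. Of 8 other demethylase genes 4 fell and 0 rose by edgeR (5 and 0 at an unadjusted p under 0.05, 3 and 0 by DESeq2, 4 and 0 by limma-voom). HR, which encodes the Jumonji corepressor Hairless, had 21.7 ± 1.22 CPM in BCLAF1-depleted and 92.1 ± 3.52 CPM in control cells (-2.09 ± 0.12, adjusted p = 4.80e-06), PHF2 was at -0.67 and UTY, the Y-linked relative of KDM6A, at -0.80. Of 24 acetyltransferase and partner genes 1 rose and 5 fell, with TRRAP, the scaffold of SAGA and TIP60, at -0.71, EPC2 at -0.65 and ZZZ3 at -0.63. Of 27 sirtuin and corepressor genes 6 rose and 5 fell: GPS2 was at 0.82, the CoREST scaffold RCOR1 at -0.81 and the NAD-dependent deacetylase SIRT1 at -0.80. Of 14 DNA methylation and bromodomain genes 4 fell; TET2 was at -0.62 and BRD1 at -0.58. With the length and GC trend removed, 7 genes of the ISWI, INO80, SRCAP and ATRX list were higher and 1 lower. In that fit 2 Polycomb genes were higher and 6 lower, 2 other methyltransferases higher and 3 lower, and 1 other demethylase higher and 3 lower, where 17.8% of all genes were higher and 16.0% lower. The calls of 6 genes named above were lost in it: PAXIP1 was at -0.33 (adjusted p = 0.0550), ASH1L at -0.32 (0.0706), RYBP at -0.38 (0.0559), ZZZ3 at -0.34 (0.0732), TET2 at -0.31 (0.128) and GPS2 at 0.65 (0.0569). EPC2 was at -0.43 (adjusted p = 0.0460) and UTY at -0.51 (0.0441).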

How the data were processed

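Per the labels' protocols, DNase-treated RNA was selected with oligo(dT) beads, fragmented and made into directional libraries with random-hexamer priming. TopHat2, bcl2fastq and edgeR are named in the submitters' processing notes, with build GRCh38; no source used here gives their versions or roles, the counting tool, the annotation release or the strand setting. The authors deposited whole-number read counts for 29122 genes and, separately, FPKM values (fragments scaled by gene length and library size) for 28878 genes. FPKM values served here for levels between genes, ratios within a library and alternatives. Selection by poly(A) tail ties levels to intact transcripts.

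Counts of the 3 BCLAF1-depleted and 3 control libraries, grouped from the labels, were tested with edgeR 4.0.16 (R 4.3.3; TMM scaling, glmQLFit and glmQLFTest, group as the only term). The filter filterByExpr (minimum count 10, minimum total 15) left 15907 genes. Benjamini-Hochberg adjustment ran over all of these, with calls under 0.05; SE is the log2 fold change divided by the root of F. CPM use TMM-scaled library sizes. GENCODE release 29 (GRCh38) gave union exon length and GC content by gene identifier for 99.2% of tested genes; per-library smooth trends (mgcv 1.9.3, basis size 8) served as offsets in 1 alternative. Promoter windows came from RefSeq tables on GRCh38.p14. Alternatives used DESeq2 1.42.0 and limma 3.58.1.

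The choice of this gene set and its symbol rule, the lists, the paralogue pairs and the naming rule were made with earlier results of these data known. By that rule up to 6 called members of a group with the largest change and the 2 with the highest CPM were given in full, with up to 3 called genes of each other list. CD3E of the leukocyte markers was not analysed here. The result of 1 gene that the rule named is not reported here.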

Additional observations from a re-analysis of the deposited data

How the results depend on the processing

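Against 8 higher and 23 lower members with a median log2 fold change of -0.11, library totals alone gave 5 higher and a median of -0.36 (all genes -0.21). Removing the length and GC trend gave 16, 14 and 0.01, and with the replicate block added 16, 16 and -0.00 (18.0% of all genes higher, 16.8% lower). The same correction without BCLAF1-depleted replicate 1, chosen after seeing the data, gave 25 higher, 22 lower and a median of 0.05 (22.7 and 21.2% of all genes). FPKM values tested with limma-trend gave 0 higher in all 3 settings. They gave 36 lower and -0.32 for log2(FPKM + 1), and 36 and -0.42 for log2(FPKM + 0.1). With no filter on low values log2(FPKM + 1) gave 14 and -0.31. In that order 22.5, 21.6 and 7.12% of all genes were lower and 5.72, 5.63 and 1.98% higher. The medians of all genes were -0.13, -0.24 and -0.01. An adjusted p under 0.01 left 2 higher and 7 lower (7.22 and 8.09% of all genes), and at least 1.5-fold 7 higher and 14 lower (13.1 and 12.6%). Leaving out 1 library gave 3 to 15 higher and 8 to 32 lower members; of all genes, 18.1% were called without control replicate 1 or 2, 19.7% without control replicate 3, and 48.8, 25.0 and 30.8% without BCLAF1-depleted replicate 1, 2 or 3. Leaving out control replicate 1, 2 or 3 ended 20, 18 and 15 of the 31 calls, and leaving out BCLAF1-depleted replicate 1, 2 or 3 ended 1, 12 and 11. No called member changed sign in any setting tried, and 7 stayed past the threshold in all of them. The cause of these changes was not tested.

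Replicate numbers did not pair the libraries by the limit of 0.1 for every pair: deviations of same-numbered libraries correlated at 0.036, 0.047 and 0.119, although each BCLAF1-depleted library correlated best with its own number. The replicate block gave 7 higher and 24 lower members (18.1 and 19.6% of all genes), a median of -0.13, and adjusted p of 0.0601, 0.0556, 0.0756 and 0.0511 for HDAC8, KDM4B, KDM8 and KMT2C. Depth limits KDM4E, which had at most 3 counts in a library, and low members such as KDM4D and SETD9.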
